A study of Mus musculus with 8 samples.

Results

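Caspases are cysteine proteases that carry out cell death, and Apaf1 encodes the scaffold of the apoptosome, on which caspase-9 is switched on. This account concerns 8 of the 55487 genes in the deposited table, found by exact match of their symbols: Casp1, Casp2, Casp4, Casp6, Casp8, Casp9, Casp12 and Apaf1. They were chosen as genes of caspases that cleave gasdermins, or act in the same pathways, and of the apoptosome. Bulk poly(A) RNA-seq was made from the ileum of 8 mice, all given irinotecan, a topoisomerase I inhibitor that injures the intestine. The WT group held 4 mice of genotype Gsdme+/+ and the Gsdme_KO group 4 mice of genotype Gsdme-/-, with 1 library per mouse. Gasdermin E, the product of Gsdme, forms membrane pores once a caspase has cut it. The sources used here give neither the strain and age of the mice nor the dose and time of irinotecan. No untreated mice were analysed here, so all values compare genotypes under treatment.

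Apoptotic caspases form a cascade. Initiator caspases gather on platforms: caspase-9 on Apaf1 bound to cytochrome c released from mitochondria, caspase-8 on the death receptor adaptor FADD, and caspase-2 on the PIDDosome. Executioner caspases, of which caspase-6 is a member, are activated by cleavage and then cut the substrates that dismantle the cell. Inflammatory caspases, encoded in mouse by the neighbouring genes Casp1, Casp4 (whose product is usually called caspase-11) and Casp12, are tied to inflammasomes and to sensing of bacterial products. Caspase-1 and caspase-11 cleave gasdermin D, which opens pores in the plasma membrane, and caspase-8 can do so as well.

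Libraries held 15617407 to 23437343 recovered reads in genes, and values below are normalized counts, that is, read counts divided by 1 size factor per library. The 8 genes were well covered, from 258 reads (Casp12) to 6486 reads (Casp8) in a library. The targeted gene Gsdme averaged 2851 ± 536 in WT mice and 349 ± 242 in Gsdme_KO mice (SD, n = 4 each), with every Gsdme_KO library below every WT library (log2 difference -3.32, two-sided exact permutation p = 0.0286, the smallest possible here). The limma fit over all genes, used below for every other gene, did not call Gsdme (unadjusted p = 9.62e-05, adjusted p = 0.786), whereas DESeq2 did (adjusted p = 2.30e-07), so the absence of a limma call does not show that a gene was unchanged. The ileal genes Fabp6 and Slc10a2, which encode a bile acid binding protein and the bile acid transporter, were abundant in all 8 libraries, with at least 14739 and 7983 normalized counts. Libraries KO4 and KO5 stood apart. Their summed B cell markers reached 10513 and 5938 normalized counts against 245 to 363 in the other 6 libraries, and their summed enterocyte markers were 126279 and 197124 against 266883 to 492397. In bulk tissue, fewer cells of a type and less RNA per cell cannot be told apart.

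None of the 8 genes differed between the genotypes by limma at an adjusted p under 0.05 (0 of 8 called, with 1 at an unadjusted p under 0.05, and 0 called by edgeR and by DESeq2). Over all 16352 tested genes, 0.00612% were called by limma in either direction (1 gene). By DESeq2 the share was 0.0553%. The log2 fold change was above 0 for 4 of the 8 genes and below 0 for 4, with a median of 0.014, beside 50.6% above 0 and a median of 0.0026 over all tested genes. Adjusted p ran from 0.849 to 0.985 (limma). Casp12 was the gene with the largest difference, and the only one of the 8 whose libraries did not overlap between genotypes, being higher in Gsdme_KO. Over all tested genes, 2.5% did not overlap in either direction, and 1.31% did not overlap and were higher in Gsdme_KO.

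**Figure D1:**
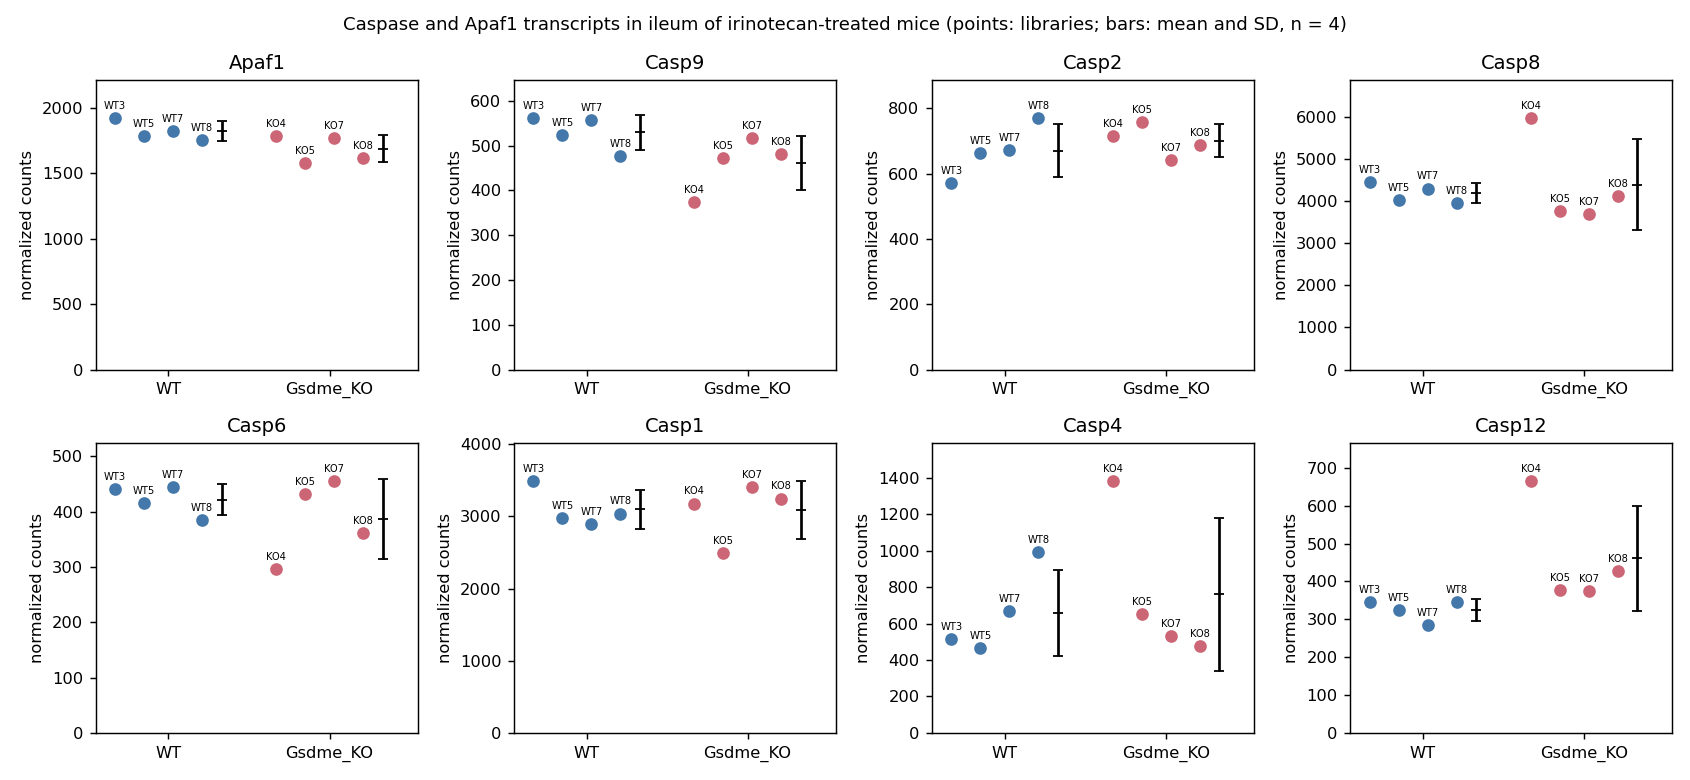
Normalized counts (vertical axis, from 0) of Apaf1 and 7 caspase genes in each WT and Gsdme_KO library, as labelled points, with the mean and SD of each genotype as a black bar (n = 4). Casp12 is the gene whose genotypes do not overlap, and KO4 is the highest point for Casp4, Casp8 and Casp12 and the lowest for Casp6 and Casp9.

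The intrinsic pathway comes first. Apaf1 (ENSMUSG00000019979, chromosome 10, 90989311 to 91082770, minus strand, GRCm38) had 1926, 1785, 1821 and 1756 normalized counts in WT3, WT5, WT7 and WT8, and 1786, 1578, 1770 and 1620 in KO4, KO5, KO7 and KO8. KO5 and KO8 lay below every WT library, and KO4 and KO7 lay within the WT range. Means of 1822 ± 74.2 and 1689 ± 105 (SD, n = 4) corresponded to a log2 fold change of -0.11 with an SE of 0.074 (limma adjusted p = 0.849). The 95% interval of the ratio of Gsdme_KO to WT ran from 0.824 to 1.04. Apaf1 was the steadiest of the 8 genes, with a coefficient of variation of 6.29% over all libraries.

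Casp9 (ENSMUSG00000028914, chromosome 4, 141793612 to 141815976, plus strand), the initiator that Apaf1 recruits, had 563, 524, 556 and 477 normalized counts in the WT libraries in the same order, and 374, 473, 517 and 481 in Gsdme_KO. KO4 was the lowest library, KO5 was just below the lowest WT library, and KO7 and KO8 overlapped WT. The log2 fold change was -0.21 (SE 0.12, limma adjusted p = 0.849), with an interval of 0.720 to 1.04 for the ratio. Without KO4 the log2 fold change was -0.11, a shift of over 1.5 times. The exons of Casp9 share 94 bases with Cela2a and Ctrc on the other strand, but these pancreatic protease genes had means of 0 and 0.671 normalized counts, so they could add few reads.

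Casp6 (ENSMUSG00000027997, chromosome 3, 129901425 to 129914103, plus strand), the executioner of the set, had 441, 416, 445 and 384 normalized counts in the WT libraries and 297, 433, 456 and 361 in Gsdme_KO. KO4 and KO8 were below all WT libraries, whereas KO7 was the highest of all 8. Its log2 fold change, -0.14 with an SE of 0.14 (limma adjusted p = 0.861), became -0.021 without KO4. KO4 was thus the lowest library for both Casp6 and Casp9, at 0.704 and 0.706 of the WT mean. By Pearson r across all libraries, Casp6 and Casp9 were the most alike pair of the 8 genes (r = 0.89, Spearman rho = 0.64, n = 8, log2 scale, a description only). Without KO4 and KO8, the libraries farthest from the median of Casp6, r was 0.56. By other measures they were not the most alike. Casp8 and Apaf1 had a higher rho (0.69), and their r was 0.79 without KO4 and KO7. Summed enterocyte markers were also lowest in KO4, and their part in these values was not tested.

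Casp2 (ENSMUSG00000029863, chromosome 6, 42264985 to 42282508, plus strand) encodes the PIDDosome caspase, known from DNA damage and centrosome signalling. It had 572, 663, 672 and 771 normalized counts in the WT libraries and 714, 759, 641 and 688 in Gsdme_KO, so that WT held both the lowest and the highest library. The log2 fold change was 0.071 (SE 0.11, limma adjusted p = 0.908), with an interval of 0.889 to 1.24 for the ratio.

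Casp8 (ENSMUSG00000026029, chromosome 1, 58795374 to 58847503, plus strand), the death receptor initiator that also holds back necroptosis, had 4453, 4014, 4295 and 3951 normalized counts in the WT libraries, and 5978, 3750, 3681 and 4120 in Gsdme_KO. KO4 was the highest library, at 1.43 times the WT mean, while KO5 and KO7 lay below every WT library. The log2 fold change was 0.041 (SE 0.15, limma adjusted p = 0.960) and turned to -0.12 without KO4 (limma adjusted p = 1.00), so its sign depended on 1 library. Of the 50-base stretches in its transcripts, 4.37% also occur in the gene model Gm20257, which had a mean of 45.6 normalized counts.

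The inflammatory caspases follow one another on chromosome 9 in the order Casp1, Casp4 and Casp12, all on the plus strand, with 1562 bases between Casp1 and Casp4 and 8646 between Casp4 and Casp12. Related genes can share reads, but no 50-base stretch of a transcript of Casp1 or Casp12, and 0.240% of those of Casp4, occur in transcripts of another gene, none of them in each other. The start-site windows of these 3 genes are shown because the genes are neighbours and yet differed in how they varied. The windows come from RefSeq on GRCm38.p6, read 5′ to 3′ on the plus strand, and end just before the first annotated start in GENCODE. Capitals mark matches to an NF-kB motif, a binding sequence of inflammatory transcription factors searched under its name, or to a GAS motif (TTCNNNGAA), which STAT factors bind.
Casp1, chr9:5298267-5298516: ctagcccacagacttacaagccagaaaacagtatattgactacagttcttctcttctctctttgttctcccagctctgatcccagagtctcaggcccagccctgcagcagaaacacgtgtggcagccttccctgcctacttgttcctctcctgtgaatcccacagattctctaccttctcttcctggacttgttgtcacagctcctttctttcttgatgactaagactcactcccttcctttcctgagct
Casp4, chr9:5308599-5308827: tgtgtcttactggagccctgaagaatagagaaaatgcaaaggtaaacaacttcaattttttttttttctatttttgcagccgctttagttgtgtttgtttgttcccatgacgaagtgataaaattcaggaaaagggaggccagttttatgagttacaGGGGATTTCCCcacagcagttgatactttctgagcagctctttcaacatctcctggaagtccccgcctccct
Casp12, chr9:5345226-5345429: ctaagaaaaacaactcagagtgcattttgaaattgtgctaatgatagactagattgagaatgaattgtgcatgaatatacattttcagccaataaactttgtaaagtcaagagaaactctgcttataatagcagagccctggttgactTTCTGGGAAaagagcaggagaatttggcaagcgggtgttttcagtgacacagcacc

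The Casp4 window held a pair of overlapping NF-kB matches that begin 93 and 92 bases before the RefSeq start of that window. Casp12 held a GAS match 102 bases before its RefSeq start and the same 9 letters again 36 bases before it, at chr9:5345430-5345458 with 10 bases on either side.
Casp12, later site: attggtatgtTTCTGGGAAggaaaggcac
Motifs were searched on both strands of the full 300-base windows. An NF-kB match was present in 4.51% and a GAS match in 8.30% of the 32851 windows of all genes. Among the windows of the 8 genes, no interferon response core (GAAANNGAA, in 8.56% of all windows) no TATA box (TATAAA, in 13.6%) and no p53 half-site (searched by name, in 8.36%) was found, and an E2F motif (TTTGGCGC or TTTCCCGC, in 1.56%) was found in Casp2. A match is a description of these letters and does not show that a factor binds there.

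Casp1 (ENSMUSG00000025888, chromosome 9, 5298517 to 5307265), the inflammasome protease that matures IL-1β and IL-18, had 3492, 2971, 2893 and 3039 normalized counts in the WT libraries, and 3178, 2496, 3406 and 3247 in Gsdme_KO. KO5 was the lowest library and WT3 the highest, and the other 6 lay between 2893 and 3406. Means of 3099 ± 269 and 3082 ± 402 (SD, n = 4) gave a log2 fold change of -0.014 with an SE of 0.11 (limma adjusted p = 0.985). The interval of the ratio, 0.827 to 1.19, leaves room for a difference of that size in either direction.

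Casp4 (ENSMUSG00000033538, chromosome 9, 5308828 to 5336783), the gene of caspase-11, which binds bacterial lipopolysaccharide, varied most. It had 513, 468, 668 and 991 normalized counts in the WT libraries, and 1384, 651, 531 and 476 in Gsdme_KO. The highest libraries were KO4 and WT8, 1 of each genotype, and the lowest were WT5 and KO8. The coefficient of variation was 45.2%, the highest of the 8, and the interval of the ratio was accordingly wide, from 0.625 to 1.92 (log2 fold change 0.13, SE 0.36, limma adjusted p = 0.948). The sign turned without KO4 (log2 fold change -0.20) and without WT5 (-0.014). Summed macrophage and monocyte markers were also highest in KO4 (12384 normalized counts), KO5 (9262) and WT8 (8652), against 5422 to 6389 in the other 5 libraries, and their part in the Casp4 values was not tested. Casp4 itself was at 651 in KO5, within the range of the lower 6 libraries.

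Casp12 (ENSMUSG00000025887, chromosome 9, 5345430 to 5373032), an inflammatory caspase also linked to endoplasmic reticulum stress in mice, had 345, 324, 285 and 345 normalized counts in WT. In Gsdme_KO it had 665, 377, 375 and 428. All 4 Gsdme_KO libraries were above all WT libraries, KO4 by far the most, at 2.05 times the WT mean, while the other 3 were at 1.16, 1.16 and 1.32 times. Means were 325 ± 28.1 and 461 ± 138 (SD, n = 4), and the log2 fold change was 0.47 (SE 0.19, limma unadjusted p = 0.0334, adjusted p = 0.849), which did not pass the threshold. The 95% interval of the ratio, from 1.03 to 1.85, is for this gene alone and does not allow for the number of genes tested. Without KO4 the log2 fold change was 0.28 (limma unadjusted p = 0.0346, adjusted p = 1.00), and without KO4 and KO5 together it was 0.31 (limma unadjusted p = 0.0464, adjusted p = 0.999), in a fit that called 0.00617% of all genes. The unadjusted p was above 0.05 without WT5 (0.0613), without WT7 (0.0860) and without KO8 (0.0513). Over all tested genes, 4.38% had an unadjusted p under 0.05. B cell, T cell and neutrophil marker sums were several times the WT mean in KO4 and KO5, and their part in the KO4 value was not tested. In KO7 and KO8, where Casp12 was also above every WT library, the B cell sums were 339 and 277 (245 to 363 in WT), the T cell sums 526 and 547 (399 to 544) and the neutrophil sums 116 and 213 (104 to 144).

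**Figure D2:**
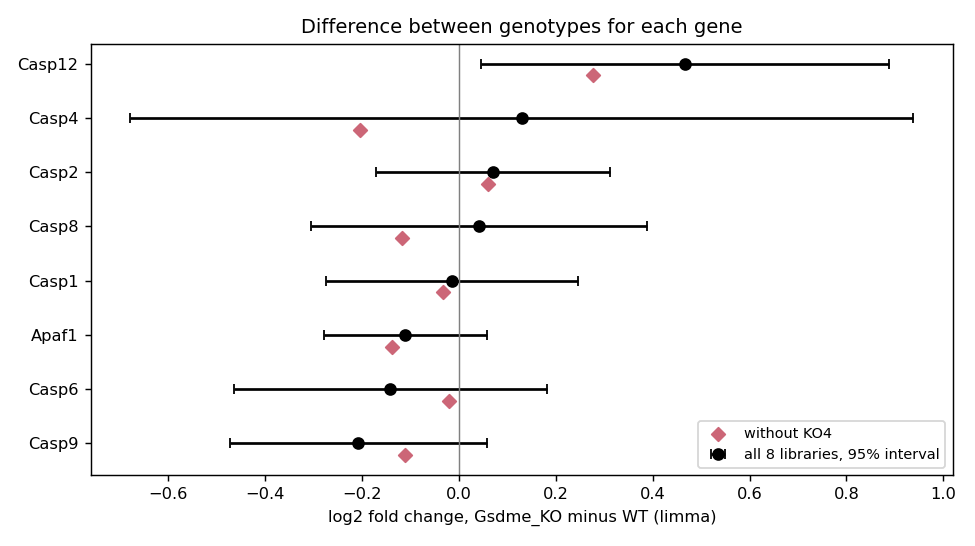
Log2 fold change of each gene, Gsdme_KO minus WT, from limma on all 8 libraries (black points with 95% intervals, horizontal axis) and without KO4 (red diamonds). Casp12 has the interval that stays above 0, before any adjustment, and the diamonds of Casp4 and Casp8 fall on the other side of 0.

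KO4 held the extreme value for some of these genes, but not for Casp1, Casp2 or Apaf1. It was the highest of the 8 libraries for 3 genes (Casp4, Casp8 and Casp12) and the lowest for 2 (Casp6 and Casp9). Over all tested genes KO4 was the highest library for 25.6% and the lowest for 24.4%, so extreme values in KO4 were common in the table as a whole. The summed epithelial markers ranged from 194885 to 231418 normalized counts, a narrower range than that of the enterocyte markers. Within that sum, markers moved in opposite directions. Epcam was lowest in KO4 and KO5 (34389 and 36133), and Krt18 was highest there (13978 and 14934). Smooth muscle markers were highest in KO5, where none of the 8 genes peaked.

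**Figure D3:**
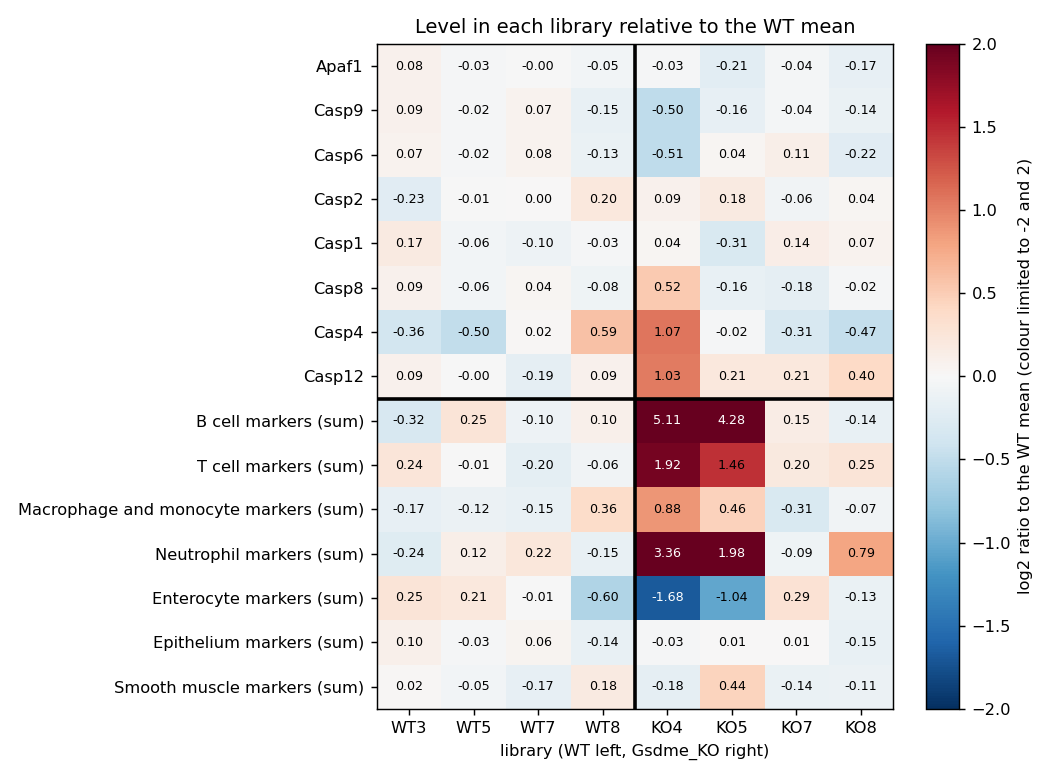
Log2 ratio of each library (columns) to the WT mean for the 8 genes (upper rows) and for summed cell type markers (lower rows), with the value printed in each cell. KO4 and KO5 share high B cell, T cell and neutrophil sums and low enterocyte sums, whereas Casp4, Casp8 and Casp12 are highest in KO4 alone (1.07, 0.52 and 1.03).

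Levels of different genes were compared per kilobase of exon, from GENCODE M21. Casp1 came first with 2064 ± 212 normalized counts per kilobase (SD, n = 8), and Casp8 followed with 1480 ± 253. Casp1 was above Casp8 in 8 of 8 libraries. Then came Apaf1 (194 ± 12.2) and Casp4 (191 ± 86.5), whose levels did not differ beyond their spread, Apaf1 being higher in 5 of 8 libraries. Casp12 (102 ± 30.7), Casp2 (97.1 ± 9.16) and Casp9 (95.4 ± 11.6) formed a group without a clear order, since Casp12 was above Casp2, and Casp2 above Casp9, in 4 of 8 libraries each. Casp6 was lowest (72.4 ± 9.66) and below Casp9 in all 8. Thus the genes of the inflammasome protease and of the death receptor initiator were the most abundant per length, and Casp8 was 7.61 times Apaf1, the next below it on this length. With the longest transcript as the length, Casp4 (374) moved above Apaf1 (267) and Casp2 (194) above Casp12 (148), while Casp1, Casp8 and Casp6 kept their places. On that length Casp8 was 4.43 times Casp4, then the next below it, and Casp1 was above Casp8 in 7 of 8 libraries.

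**Figure D4:**
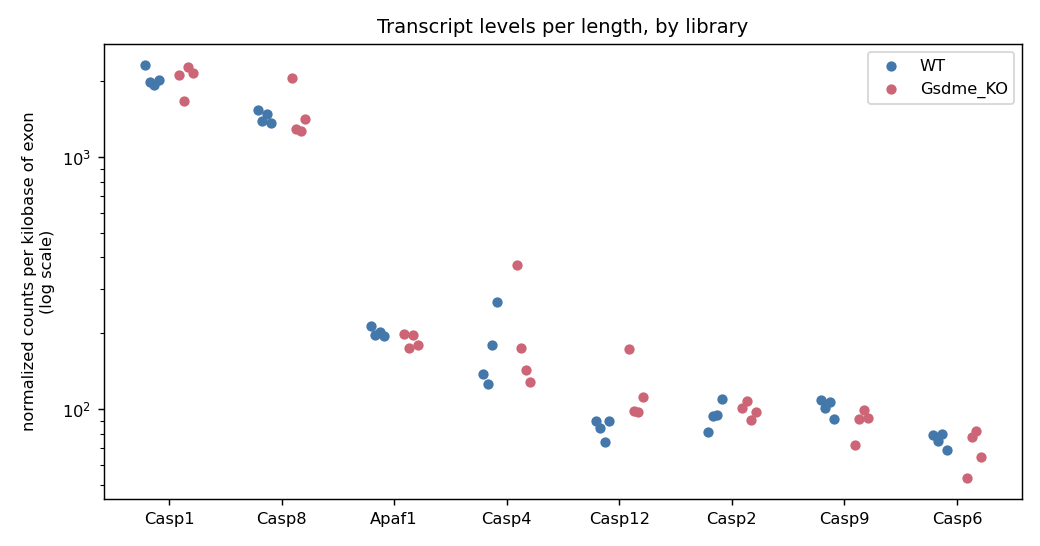
Normalized counts per kilobase of exon (vertical axis, log scale) for the 8 genes, ordered by mean, with each library as a point (blue WT, red Gsdme_KO). Casp1 and Casp8 lie above 1000 in every library, and the other 6 genes lie below 400.

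Among the 28 pairs of these genes, Pearson r across the 8 libraries ran from -0.92 (Casp9 and Casp12) to 0.89 (Casp6 and Casp9). The opposite course of Casp9 and Casp12 (rho -0.81) was also present without KO4 and WT3 (r = -0.76). Casp8 and Casp12 had r = 0.73, but without KO4 and KO7 it was -0.34, so that this likeness rested on those libraries. Casp4 and Casp12, though neighbours, had r = 0.60, and -0.41 without KO4 and WT8. These values describe 8 libraries that share a genotype difference and library makeup.

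The genes most like each member across the 8 libraries were also found, by the highest Pearson r among 16352 tested genes, which favours high values. For Casp4 they were P2ry13 (r = 0.99), a nucleotide receptor of myeloid cells, Hipk1 (0.99) and Elf1 (0.98), and without KO4 and WT8 these r were 0.96, 0.95 and 0.94. P2ry13 had 128 normalized counts in KO4 and 96.8 in WT8, against 62.3 or fewer in the other 6. For Casp12 they were Rbpj (r = 0.97), which encodes the Notch pathway's DNA-binding factor, Bex3 (0.97) and AW011738 (0.97), which without KO4 and WT7 gave 0.92, 0.67 and 0.66. For Casp8 they were Fbxl5 (0.98), Ptges3 (0.96) and Pml (0.95), and for Casp9 Mrpl9 (0.98), Prkcz (0.98) and Ptdss1 (0.98). These r were 0.91, 0.70 and 0.85 for Casp8 without KO4 and KO7. They were 0.90, 0.96 and 0.92 for Casp9 without KO4 and WT3. Casp1 was followed most closely by Jarid2 (0.98), Map10 (0.96) and Serinc1 (0.96), and Casp2 by Ppic (0.98), Cyp20a1 (0.97) and Hsd11b1 (0.96). Without KO5 and WT3 the r for Casp1 were 0.91, 0.88 and 0.83. Those for Casp2 were 0.94, 0.94 and 0.95 without WT3 and WT8. The nearest to Casp6 were Ppp6r1, Faap100 and Rap1gap2 (0.97 each) and to Apaf1 Rb1cc1 (0.94), Stam (0.93) and Rnf115 (0.93). Without KO4 and KO8 the r for Casp6 fell to 0.75, 0.87 and 0.90. Those for Apaf1 fell to 0.78, 0.62 and 0.69 without KO5 and KO8. These r have no test.

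Genes that act with these caspases were read from the same fit, by list. Of 61 tested, 0 were called by limma, edgeR or DESeq2, against 0.00612% of all genes by limma, and 4 (6.56%) had a limma unadjusted p under 0.05, against 4.38% of all genes. These 4 were Fasl, Il18, Card9 and Prmt1, the last pair named after their values were seen. Apoptosome partners and mitochondrial death factors were above 0 in log2 fold change for 4 of 10 tested members and below 0 for 6 (median -0.050). Cycs, which encodes the cytochrome c that opens Apaf1, averaged 7992 ± 1246 in WT mice and 7607 ± 393 in Gsdme_KO mice (SD, n = 4 per genotype, limma adjusted p = 0.933), and Set, a nuclear factor reported to act on the apoptosome, had 4217 ± 511 and 4471 ± 472. Of 5 tested inhibitor of apoptosis genes, 3 were positive and 2 negative (median 0.054). Xiap, the inhibitor that binds caspase-9, had 3575 ± 87.9 and 3555 ± 460, and Birc6 had 1519 ± 160 and 1584 ± 156.

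The death receptor and caspase-8 complex had 10 tested members, 4 positive and 6 negative (median -0.0054). Cflar, which encodes the caspase-8 regulator cFLIP, averaged 1919 ± 159 in WT mice and 1956 ± 301 in Gsdme_KO mice (SD, n = 4). Tnfrsf1a, a TNF receptor gene, had 3244, 3549, 3421 and 3065 in WT, and 5565, 3028, 3356 and 3290 in Gsdme_KO. KO4 stood alone here, as it did for Casp8. Fasl, the Fas ligand of cytotoxic lymphocytes, was low, with 4.54, 2.38, 1.11 and 9.93 in WT and 28.6, 13.5, 13.4 and 10.04 in Gsdme_KO. Its genotypes did not overlap, though by a narrow margin between WT8 and KO8, and rested on 1 to 31 reads (log2 fold change 1.83, SE 0.56, limma unadjusted p = 0.0102, adjusted p = 0.849). The summed T cell markers, lower in KO7 and KO8 than in KO4 (1734) and KO5 (1268), have been given for Casp12, and their part in the Fasl values was not tested.

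For the PIDDosome, Pidd1 averaged 252 ± 32.5 in WT mice and 275 ± 43.6 in Gsdme_KO mice (SD, n = 4), and the adaptor gene Cradd had 130 ± 24.4 and 97.8 ± 30.0, with KO4 lowest at 57.1. For both genes the genotypes overlapped (limma adjusted p = 0.879 and 0.849). Inflammatory caspase platforms had 11 tested members, 6 positive and 5 negative, with a median of 0.27. Gbp2, a guanylate-binding protein gene induced by interferon, reached 23766 normalized counts in KO4, whereas the other Gsdme_KO libraries had 1710, 635 and 802 and the WT libraries 648 to 1088. Nlrp6, an epithelial inflammasome sensor gene, was at 997 in KO4 and at 2004 in KO5, and the other 6 libraries ran from 2400 to 3905. KO4 thus held the extreme value of both genes, in opposite directions.

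The list of inflammatory caspase substrates and related genes (Gsdmd, Il18, Il1b, Il33 and Ninj1) had 5 tested members, 4 positive and 1 negative. Its median of 0.29 was the value of Ninj1, a membrane rupture gene rather than a caspase substrate. The negative one was Il18, the cytokine precursor that caspase-1 matures, with 961, 1284, 1095 and 1093 normalized counts in the WT libraries and 466, 999, 629 and 834 in Gsdme_KO. KO5 overlapped WT, and the other 3 Gsdme_KO libraries were below every WT library (log2 fold change -0.65, SE 0.22, limma unadjusted p = 0.0168, adjusted p = 0.849). Gsdmd, the gasdermin gene downstream of caspase-1 and caspase-11, averaged 4995 ± 878 in WT mice and 5357 ± 1060 in Gsdme_KO mice (SD, n = 4), with KO4 highest at 6798. Gasdermin genes other than Gsdme had 5 tested members, 4 positive and 1 negative (median 0.68). That median was the value of Gsdmc4, with an SE of 1.64, and its paralogs Gsdmc2 and Gsdmc3 were in the same list. Gsdmc4 spanned 60.8 (KO4) to 8015 (KO5) within Gsdme_KO and 67.9 (WT8) to 4125 (WT5) within WT, with reads that close paralogs could share.

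Apoptotic caspase substrates had 14 tested members, 8 positive and 6 negative (median 0.012). Krt18, an epithelial keratin cut during apoptosis, had 8435, 10170, 9105 and 8998 normalized counts in the WT libraries and 13978, 14934, 9178 and 10261 in Gsdme_KO, high in KO4 and KO5 and within or near the WT range in KO7 and KO8 (log2 fold change 0.37, SE 0.17, limma adjusted p = 0.849). Gsn, the actin-severing protein gelsolin, had 7589 ± 945 and 8307 ± 686 (SD, n = 4).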

How the data were processed

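Strand-specific poly(A) libraries were made from ileum RNA of 8 mice given irinotecan (4 WT, 4 Gsdme_KO), per the labels' protocols. Reads were processed on GRCm38 with HISAT2, SAMtools, Subread, featureCounts and DESeq2, per the submitters' processing notes. The sources used here give no versions, annotation or strand setting. The deposited table holds normalized signal, in which the authors divided each gene's count by 1 size factor per library. All values (100%) were whole multiples of 1 step per library (tolerance 0.01 reads), from which reads were recovered. Column headers number libraries up to 8, whereas labels number mice from 1 to 4, so columns were assigned to genotypes only, and names such as KO4 are those of the headers. Every pair of libraries differed beyond sampling noise (lowest chi-square per degree of freedom 11.5).

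Genotypes were compared with limma-trend (limma 3.58.1, R 4.3.3) on log2(normalized count + 1) over 16352 genes whose mean reached 10, with Benjamini-Hochberg adjustment and a threshold of 0.05. This scale understates changes of low genes. Alternatives were pseudocounts of 0.5 and 5, no filter, a mean of at least 50, TMM factors, quantile normalization, array quality weights, an adjusted p under 0.1, edgeR 4.0.16 and DESeq2 1.42.0 on the recovered reads, and each library left out. edgeR called 1 gene and DESeq2 9 genes in either direction. Leaving out KO4 and KO5 was added after seeing the data. Tested on simulated data for Gsdme_KO against WT, over 16352 genes with 200 changed per run, limma called 45.7% of genes changed 2-fold. It called 80.0% of those changed 4-fold. Genes were drawn independently, without a shift shared by the genes of a library, so these shares need not hold in the real libraries. There limma did not call Gsdme on all 8 libraries, but it did without KO4 and KO5 (adjusted p = 0.0275).

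Members and lists were chosen with earlier results of these data known. The genes named are the 8 members, Gsdme, and the called members of each list or else the 2 of highest mean. Also named are list members whose genotypes did not overlap, and the 3 genes most correlated with each member. Pseudogenes, receptor segments and gene models recognized by name were left out of the correlated genes. AW011738, itself named like a gene model, passed this filter. Card9 and Prmt1 were named, and the values of Il1b, Il33 and Epcam given, after their values were seen. Marker sums add 5 to 10 genes per cell type. Results of other caspase genes are not reported here. Positions and lengths are from GENCODE M21 and promoter windows from RefSeq (GRCm38.p6), which held all 8 genes.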

Additional observations from a re-analysis of the deposited data

Results flagged for a closer look

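Outliers were sought for the 8 members, Gsdme and the list genes named by rule, not for the correlated genes, Card9 or Prmt1. In 2 of 50 groups of 4 libraries examined, 1 library lay far from the other 3, where chance alone flags about 5% of groups. Both were in KO4. Tnfrsf1a had 5565 normalized counts there, and the next Gsdme_KO library had 3356. Gbp2 had 23766 normalized counts there, and the next had 1710. For the 8 caspase and apoptosome genes and Gsdme, no group was flagged, which does not mean that their libraries lay close together. KO4 was also well above the other Gsdme_KO libraries for Casp4, Casp8 and Casp12. Casp4 had 1384 normalized counts in KO4, and the next Gsdme_KO library had 651. Casp8 had 5978 there, and the next had 4120. Casp12 had 665 there, and the next had 428.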

How the results depend on the processing

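No member was called under any of 18 alternative fits or at an adjusted p under 0.1, and no partner gene either. Of the 144 member values under these fits, 130 kept their sign and 14 turned, all in Casp1, Casp2, Casp4 and Casp8. Casp6, Casp9, Casp12 and Apaf1 kept their sign in all 18 (Casp12 from 0.28 to 0.55, limma, edgeR or DESeq2 adjusted p from 0.428 to 1.00). Among the fits that left out 1 library, the log2 fold change ran from -0.065 to 0.084 for Casp1, from -0.0023 to 0.14 for Casp2, from -0.20 to 0.35 for Casp4 and from -0.12 to 0.12 for Casp8. Casp1 turned to 0.045 without WT3 and 0.084 without KO5, Casp2 to -0.0023 without WT3, Casp4 to -0.014 without WT5 and -0.20 without KO4, and Casp8 to -0.12 without KO4. Quantile normalization turned Casp1 to 0.020. Array quality weights turned Casp1 to 0.0061, Casp4 to -0.16 and Casp8 to -0.068. With both KO4 and KO5 left out, which was decided after seeing the data, Casp1 was 0.11, Casp2 -0.0038, Casp4 -0.33 and Casp8 -0.10. The cause was not tested. Over all genes, limma called 1 higher and 0 lower, DESeq2 8 higher and 1 lower, and limma without KO4 and KO5 0 higher and 1 lower. Gsdme was the gene called lower both by DESeq2 (adjusted p = 2.30e-07) and by limma without KO4 and KO5 (adjusted p = 0.0275). Leaving out 1 library gave 0 to 1 higher and 0 lower. The Gsdme difference without KO4 and KO5 was -2.37 (exact permutation p = 0.0667, the smallest that 4 against 2 libraries can give). With the longest transcript as the length, levels per kilobase were 194 for Casp2, 374 for Casp4, 103 for Casp6, 127 for Casp9, 148 for Casp12 and 267 for Apaf1, the length being the only change. No paired analysis was possible because the column headers cannot be tied to the replicate numbers of the labels. With 4 mice per genotype, the upper 95% bounds of the ratio of Gsdme_KO to WT ran from 1.04 (Apaf1 and Casp9) to 1.92 (Casp4) and the lower bounds from 0.625 (Casp4) to 1.03 (Casp12).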
